A study of Mus musculus with 9 samples.

Results

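The mRNAs of 10 amino acid transporter genes were followed in mouse macrophages exposed to organotin compounds. The genes are Slc7a11, Slc7a5, Slc3a2, Slc7a1, Slc7a2, Slc1a4, Slc1a5, Slc38a1, Slc38a2 and Slc6a9, taken from a list of gene names. All 10 were measured, out of 18193 genes on the arrays that could be assigned to a single gene name. Bone marrow derived macrophages of C57BL6 mice aged 6 to 12 weeks were grown with L929 conditioned medium, which was withdrawn before treatment. On culture day 6 every group, saline included, first received LPS (lipopolysaccharide, part of the outer membrane of Gram-negative bacteria and an activator of macrophages) at 33 ng/mL for 3 h. The groups then received for 6 h either TMT (trimethyltin hydroxide, 1.25 µM), TET (triethyltin bromide, 10 µM) or sterile saline, with 3 biological replicates and 3 arrays each, 9 arrays in all. No group without LPS was analysed here, and the labels do not say whether the replicates came from separate mice, so the tests weigh differences against a spread that may be partly technical.

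Amino acid transporters bring in the building blocks of protein and glutathione, and several work as exchangers that give up one amino acid for another. Shortage of amino acids activates the kinase GCN2, which raises translation of the transcription factor ATF4, and ATF4 with C/EBP partners switches on many transporter genes. In activated macrophages cystine uptake feeds glutathione, and arginine uptake feeds nitric oxide synthase and arginase.

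Values are log2 signals from the submitters' RMA processing, and a difference between groups is a log2 fold change with its moderated standard error (SE). A gene was called when limma's adjusted p over all 18193 genes was under 0.05. Interquartile ranges of the signal were 3.78 to 3.86 on TMT arrays, 3.45 to 3.55 on TET arrays and 3.83 to 3.88 on saline arrays, so TET signals were compressed. Among genes at or above the median level the median log2 fold change was −0.19 for TET against saline, and among dimmer genes it was 0.20. No source used here says if 1 RMA run covered all 9 arrays, so for shifts of that size the processing and TET cannot be told apart. The 7 macrophage markers measured, among them Adgre1, Csf1r and Cd68, had a median level at the 98.4th percentile of genes. Their summed linear signal ran from 61226 to 72308 in TMT, from 56113 to 62488 in TET and from 64171 to 66558 in saline. Neutrophil markers (5 of 6 measured) summed to 425 to 478 in TMT, 375 to 416 in TET and 571 to 630 in saline. Of the brighter ones, Ngp fell 2.67-fold under TMT and 2.47-fold under TET, whereas Camp did not pass under TMT (0.15) and fell under TET (−0.50). Fibroblast and stromal markers (5 measured) summed to 1387 to 1836 in TMT, 768 to 955 in TET and 1168 to 1283 in saline. The fibroblast and stromal sum follows Pdgfrb, which fell 3.01-fold under TET, whereas Col1a1, Col1a2 and Dcn rose there (0.62, 0.91 and 0.63). T, NK and B cell markers (5 of 6 measured, median at the 15.9th percentile) summed to 138 to 153, 203 to 231 and 149 to 159 in the same order, and erythroid and mast cell markers (4 of 5 measured) to 128 to 134, 145 to 161 and 122 to 129.9. The part of these markers in the results was not tested. In bulk RNA, fewer cells of a type and less RNA per cell cannot be told apart.

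Under TMT, 4 of the 10 transporter mRNAs rose (Slc38a2, Slc7a2, Slc1a4 and Slc3a2), 3 fell (Slc1a5, Slc7a11 and Slc7a5) and 3 did not pass the test. The largest changes were a 2.87-fold rise of Slc38a2 and a 3.05-fold fall of Slc1a5. Of all genes 27.8% were called under TMT, 14.3% upward and 13.4% downward. Since 9 of the 10 transporters lay at or above the median level, the 46.2% called among all genes at that level are the closer background. The median log2 fold change of the 10 was −0.047, against 0.012 over all genes and 0.032 over genes at or above the median level. The TMT and saline arrays did not overlap for 9 of the 10 genes, 4 of them higher and 5 lower in TMT, where 44.7% of all genes did not overlap. Non-overlap was commoner at or above the median level: of those 9097 genes, 3219 were higher and 2844 lower in TMT without overlap. Under TET, 4 rose (Slc1a4, Slc38a2, Slc3a2 and Slc6a9), 1 fell (Slc7a1) and 5 did not pass. That count is no larger than the background, because 50.8% of all genes were called under TET (27.4% upward and 23.4% downward), and 64.9% of those at or above the median level. Arrays did not overlap for 5 of the 10, against 58.7% of all genes. Of the 9097 genes at or above the median level, 2480 were higher and 4162 lower in TET without overlap. The sizes differed from gene to gene: Slc1a4 rose 7.24-fold and Slc38a2 6.85-fold, while no other transporter of the 10 changed as much as 2-fold. The median log2 fold change of the 10 under TET was 0.24, against 0.094 over all genes and −0.19 over genes at or above the median level.

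**Figure D1:**
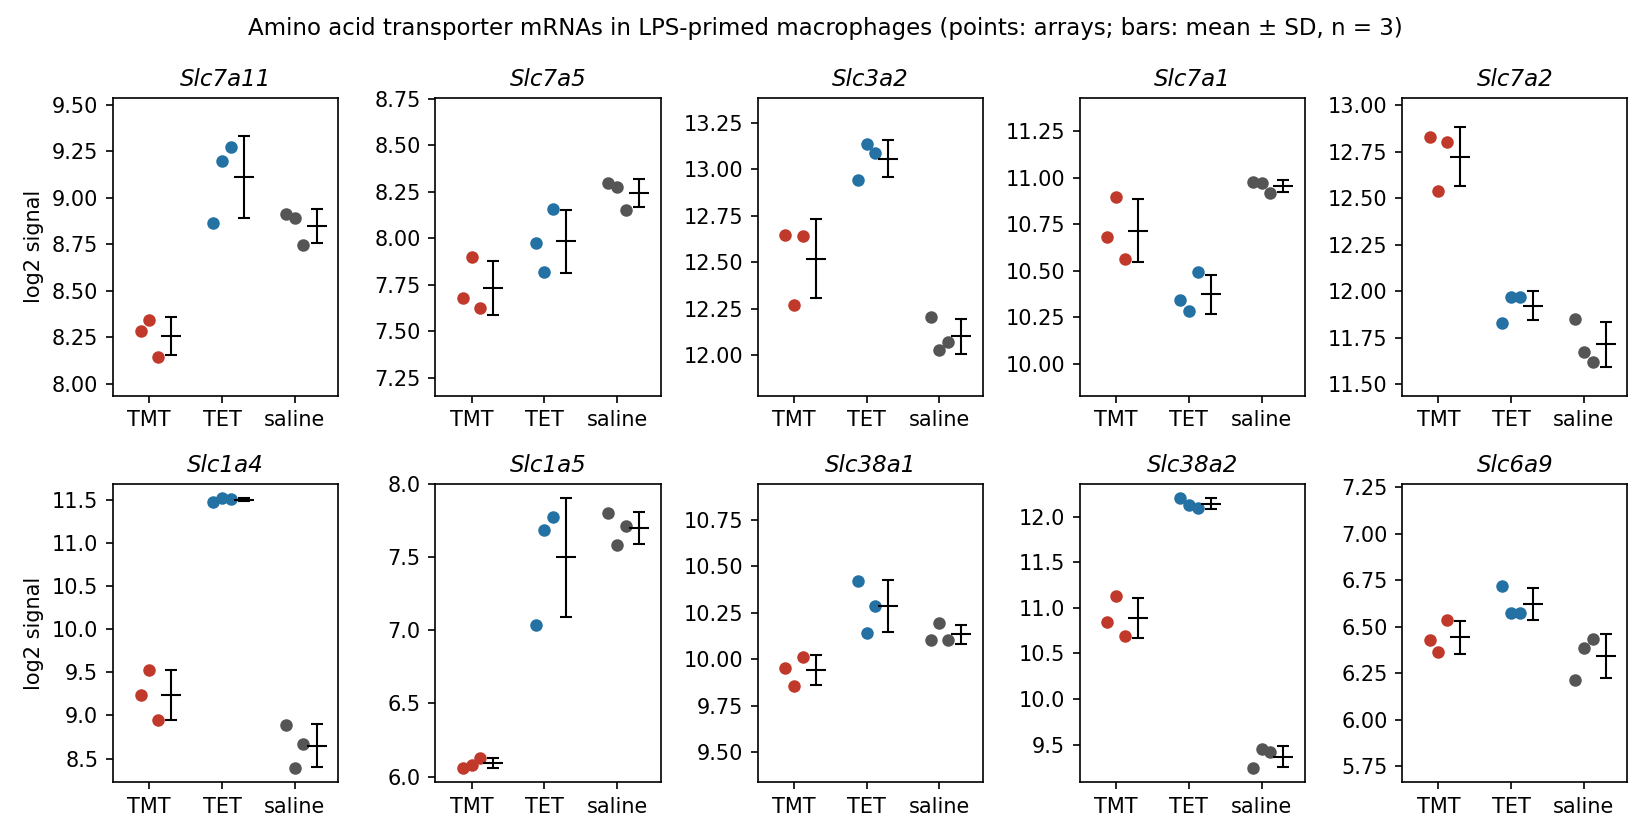
Log2 signal (vertical axis, a separate range in each panel) of the 10 transporter mRNAs in the 3 arrays each of TMT, TET and saline; points are arrays, and bars are means ± SD (n = 3). The TET arrays of Slc1a4 and Slc38a2 stand far above the saline arrays, and the TMT arrays of Slc1a5 lie near 6.09 against 7.70 in saline.

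The first group is the heteromeric exchangers, in which the heavy chain encoded by Slc3a2 carries a light chain to the cell surface. Slc3a2 was at 12.65, 12.27 and 12.64 in the TMT arrays, at 12.94, 13.14 and 13.09 in the TET arrays and at 12.21, 12.03 and 12.07 in the saline arrays. The groups did not overlap, with TET highest and saline lowest. Slc3a2 rose 1.34-fold under TMT (log2 fold change 0.42, SE 0.12, adjusted p = 0.0234) and 1.94-fold under TET (0.95, SE 0.12, adjusted p = 9.5e-05). The TMT call was lost without saline replicate 2 or 3 or TMT replicate 1 or 3, where the value stayed at 0.35 to 0.40 with adjusted p of 0.0788 to 0.0985.

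Slc7a11 encodes xCT, the light chain that imports cystine in exchange for glutamate. It was at 8.28, 8.34 and 8.14 in the TMT arrays, at 8.86, 9.20 and 9.27 in the TET arrays and at 8.91, 8.89 and 8.74 in the saline arrays. All TMT arrays lay below all saline arrays, whereas 2 TET arrays lay above the saline range and 1 within it. Slc7a11 fell 1.51-fold under TMT (−0.59, SE 0.12, adjusted p = 0.00374), the direction opposite to its heavy chain. Under TET it did not pass (0.26, 95% interval −0.00487 to 0.53, adjusted p = 0.0926). It passed there after quantile normalization was applied again (0.44, adjusted p = 0.00821), after cyclic loess (0.57, adjusted p = 0.00269) and without TET replicate 1 (0.39, adjusted p = 0.0115). With averaged probe sets the value shrank to 0.077 (adjusted p = 0.42).

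Slc7a5 encodes LAT1, the light chain that carries leucine and other large neutral amino acids. It was at 7.68, 7.90 and 7.62 in the TMT arrays, at 7.97, 7.82 and 8.16 in the TET arrays and at 8.29, 8.28 and 8.15 in the saline arrays. The TMT arrays lay below the saline range, and the TET arrays reached into it with 1 array. Slc7a5 fell 1.42-fold under TMT (−0.51, SE 0.11, adjusted p = 0.00664) and did not pass under TET (−0.26, 95% interval −0.51 to −0.00491, adjusted p = 0.0824). The TET value passed without TET replicate 3 (−0.34, adjusted p = 0.0289) and vanished after cyclic loess (−0.00304, adjusted p = 0.986). The light chain mRNAs Slc7a11 and Slc7a5 were thus lower under TMT by their brightest probe sets, while the heavy chain mRNA was higher. The second probe set of Slc7a11 did not pass there (−0.11). Other light chains did not share the fall: Slc7a8 rose under TMT (0.80, adjusted p = 0.00217), and Slc7a6 (0.55) and Slc7a7 (−0.12) did not pass.

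The cationic carriers Slc7a1 (CAT1) and Slc7a2 (CAT2) take up arginine, lysine and ornithine without a heavy chain. CAT2 is the form induced in activated mouse macrophages. Slc7a2 was at 12.83, 12.54 and 12.80 in the TMT arrays, at 11.83, 11.97 and 11.97 in the TET arrays and at 11.85, 11.68 and 11.62 in the saline arrays. The TMT arrays lay above every other array, and the TET and saline arrays overlapped. Slc7a2 rose 2.01-fold under TMT (1.01, SE 0.11, adjusted p = 5.67e-05), a call kept in all 18 alternatives with values of 0.96 to 1.10. Under TET it did not pass (0.21, 95% interval −0.032 to 0.45, adjusted p = 0.131), but it passed after cyclic loess (0.36, adjusted p = 0.0141) and renewed quantile normalization (0.30, adjusted p = 0.0332).

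Slc7a1 was at 10.68, 10.90 and 10.56 in the TMT arrays, at 10.35, 10.29 and 10.49 in the TET arrays and at 10.98, 10.97 and 10.92 in the saline arrays. Both organotin groups lay below the saline range. Slc7a1 fell 1.5-fold under TET (−0.58, SE 0.10, adjusted p = 0.00106), and its TMT value did not pass (−0.24, 95% interval −0.47 to −0.0093, adjusted p = 0.124). After cyclic loess the fall under TET was −0.27 (adjusted p = 0.0277). The TMT value passed with averaged probe sets (−0.43, adjusted p = 0.00273) and without TMT replicate 2 (−0.33, adjusted p = 0.0345).

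The widest differences from saline were those of the neutral amino acid carriers Slc1a4 and Slc38a2 under TET and Slc1a5 under TMT. Slc38a1 and Slc6a9, also neutral carriers, differed less. Slc38a2 encodes SNAT2, which takes up alanine, glutamine and other small neutral amino acids with sodium, and whose activity is known to rise on amino acid starvation. It was at 10.84, 11.13 and 10.70 in the TMT arrays, at 12.21, 12.13 and 12.09 in the TET arrays and at 9.24, 9.45 and 9.42 in the saline arrays. The groups were well apart, in the order TET, TMT, saline. Slc38a2 rose 2.87-fold under TMT (1.52, SE 0.12, adjusted p = 7.07e-06) and 6.85-fold under TET (2.78, SE 0.12, adjusted p = 6.37e-08). Its paralogue Slc38a1 (SNAT1) was at 9.95, 9.86 and 10.01 in the TMT arrays, at 10.42, 10.14 and 10.29 in the TET arrays and at 10.10, 10.19 and 10.10 in the saline arrays. The TMT arrays lay just below the saline range and the TET arrays overlapped it, and Slc38a1 passed in neither comparison (−0.19, adjusted p = 0.187 under TMT; 0.15, adjusted p = 0.219 under TET). Under TET it passed after cyclic loess (0.42, adjusted p = 0.00572) and just passed after renewed quantile normalization (0.28, adjusted p = 0.0488).

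Slc1a4 and Slc1a5 encode ASCT1 and ASCT2, sodium-dependent exchangers of small neutral amino acids. ASCT1 is known for serine and ASCT2 for glutamine. Slc1a4 was at 9.24, 9.52 and 8.95 in the TMT arrays, at 11.48, 11.52 and 11.51 in the TET arrays and at 8.89, 8.39 and 8.67 in the saline arrays. The TET arrays agreed closely and stood far above the rest, whereas the lowest TMT array lay only just above the highest saline array. Slc1a4 rose 7.24-fold under TET (2.86, SE 0.16, adjusted p = 3.4e-07) and 1.5-fold under TMT (0.59, SE 0.16, adjusted p = 0.0178). The TMT call was lost without saline replicate 2 or 3 or TMT replicate 1 or 2, with values of 0.45 to 0.60 and adjusted p of 0.0506 to 0.0750, with averaged probe sets (0.36, adjusted p = 0.0774) and without probe sets of related transcripts (0.39, adjusted p = 0.113).

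Slc1a5 was at 6.06, 6.08 and 6.13 in the TMT arrays, at 7.03, 7.69 and 7.78 in the TET arrays and at 7.80, 7.59 and 7.72 in the saline arrays. The TMT arrays lay far below the other arrays, and the TET arrays spread widely because replicate 1 was low. Slc1a5 fell 3.05-fold under TMT (−1.61, SE 0.17, adjusted p = 5.46e-05), to a level below the median gene (6.82) that was not shown to lie above background, so the fold can understate the change. Under TET it did not pass (−0.20, 95% interval −0.58 to 0.18, adjusted p = 0.351), and without TET replicate 1 the value was 0.033. Slc6a9, encoding the glycine transporter GlyT1, was the dimmest of the 10, at the 45.7th percentile of genes. It was at 6.43, 6.36 and 6.54 in the TMT arrays, at 6.72, 6.57 and 6.57 in the TET arrays and at 6.21, 6.39 and 6.43 in the saline arrays. The TET arrays lay above the saline range, and the TMT arrays overlapped it. Its rise under TET was small (1.21-fold, 0.28, SE 0.10, adjusted p = 0.0347) and was lost in 9 of 17 alternatives (highest adjusted p 0.134, without saline replicate 1), and under TMT it did not pass (0.10, adjusted p = 0.549). All Slc6a9 arrays lay below the median gene and were not shown to lie above background. Genes below the median level had a median of 0.20 under TET, so for a rise of 0.28 the processing and TET cannot be told apart.

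**Figure D2:**
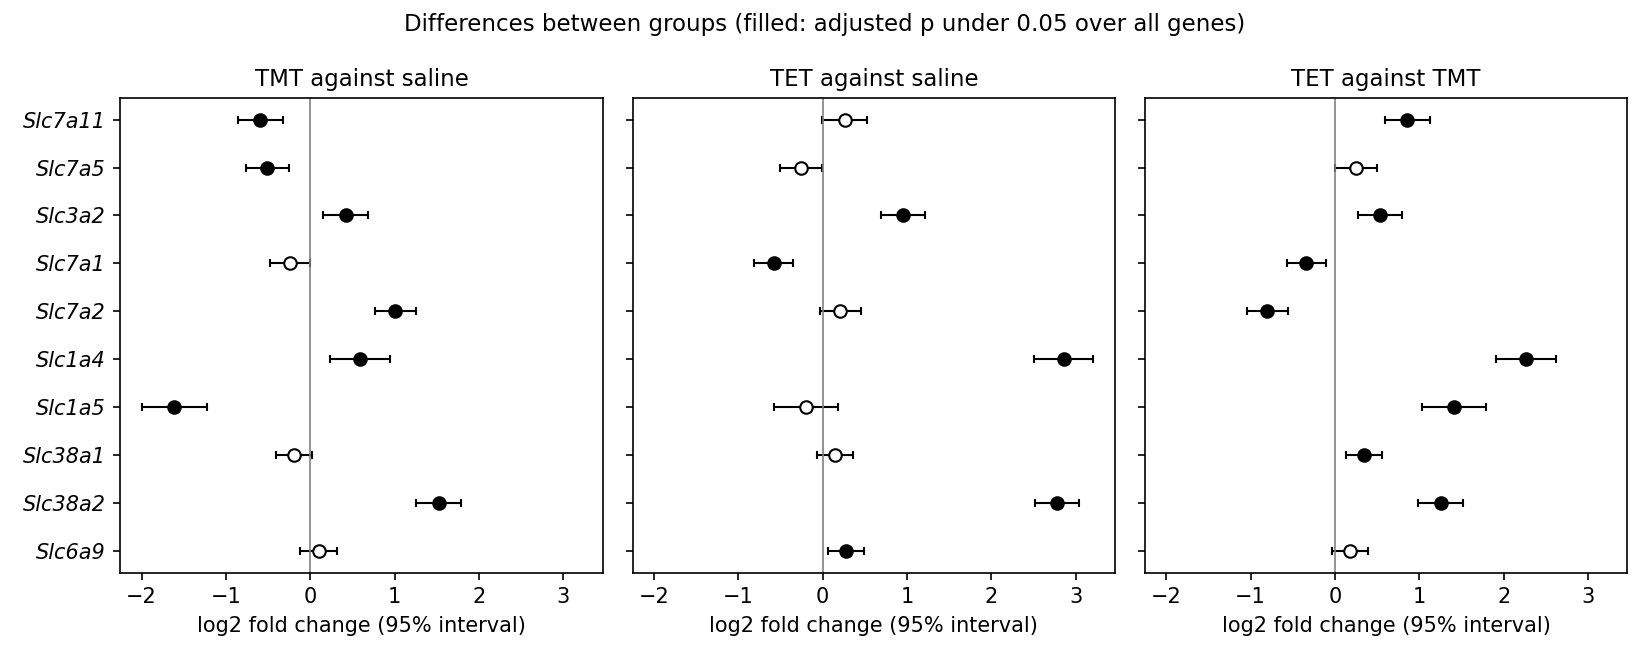
Log2 fold changes (horizontal axis) of the 10 transporter mRNAs in the 3 comparisons, with 95% intervals from the fit over all genes; filled points were called at an adjusted p under 0.05. Slc38a2, Slc1a4 and Slc3a2 are filled on the positive side in each panel, and Slc1a5 is filled at −1.61 under TMT and at 1.41 for TET against TMT.

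The TET and TMT groups were also compared with each other. TET was given at 10 µM and TMT at 1.25 µM, so the compound and its dose cannot be told apart in these values. Of the 10 transporters, 6 were higher in TET and 2 lower, where 51.8% of all genes were called (28.1% higher and 23.7% lower). Of genes at or above the median level 66.6% were called (25.1% higher and 41.5% lower). Arrays of the 2 groups did not overlap for 9 of the 10, against 57.0% of all genes. Of the 9097 genes at or above the median level, 2445 were higher and 3889 lower in TET without overlap. Slc1a4 was 4.81-fold higher in TET (2.27, SE 0.16, adjusted p = 1.6e-06), Slc1a5 2.66-fold (1.41, SE 0.17, adjusted p = 7.31e-05) and Slc38a2 2.39-fold (1.25, SE 0.12, adjusted p = 1.32e-05). Slc7a11 was 1.81-fold higher (0.85, adjusted p = 0.000196), Slc3a2 1.45-fold (0.54, adjusted p = 0.00363) and Slc38a1 1.27-fold (0.34, adjusted p = 0.0132). The second probe set of Slc7a11 did not pass (−0.00186, adjusted p = 0.989), and that of Slc38a1 was 2.89-fold higher in TET (1.53, adjusted p = 1.59e-05). The cationic carriers differed the other way. Slc7a2 was 1.74-fold lower in TET (−0.80, SE 0.11, adjusted p = 0.000152) and Slc7a1 1.27-fold lower (−0.34, adjusted p = 0.0198). The Slc7a1 value did not hold: it was lost after cyclic loess (−0.15, adjusted p = 0.299) and without TMT replicate 2 or TET replicate 2 (−0.25, adjusted p = 0.0617; −0.30, adjusted p = 0.0568), and the gene's second probe set was higher in TET (0.47, adjusted p = 0.00558). Slc7a5 (0.25, 95% interval −0.00128 to 0.50) and Slc6a9 (0.18, 95% interval −0.035 to 0.39) did not pass. Slc7a5 passed after cyclic loess (0.48, adjusted p = 0.00628) and renewed quantile normalization (0.43, adjusted p = 0.0123), without TMT replicate 2 (0.33, adjusted p = 0.0401) and without TET replicate 2 (0.33, adjusted p = 0.0378).

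All genes but Slc7a5 and Slc3a2 had more than 1 probe set, and these served as a check of the values above. For Slc38a2 all 3 probe sets rose under both compounds, by 0.79 to 1.52 under TMT and by 2.01 to 2.78 under TET. All 4 probe sets of Slc7a2 rose under TMT, by 0.82 to 1.37. Under TET only the dimmest probe set of Slc7a2 passed (0.71, adjusted p = 0.000149), and another stood at −0.23. All 3 probe sets of Slc1a4 rose under TET, by 1.56 to 2.97. Under TMT the dimmer pair did not pass (0.39 and 0.11).

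Other genes gave less uniform readings. The second probe set of Slc7a11 did not pass under either compound (−0.11 under TMT and −0.11 under TET). The dim second probe set of Slc1a5, at the 25.7th percentile of probe sets, stood at 0.077 under TMT (adjusted p = 0.736) and rose under TET (0.53, adjusted p = 0.00404). The second probe set of Slc7a1 fell under TMT (−0.55, adjusted p = 0.00419), and under TET neither it (−0.080) nor the third (−0.16) passed. Slc38a1 passed in its second probe set, downward under TMT (−0.60, adjusted p = 0.0111) and upward under TET (0.93, adjusted p = 0.000472). In Slc6a9 the dimmer probe set rose under TET (0.84, adjusted p = 0.00134).

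**Figure D3:**
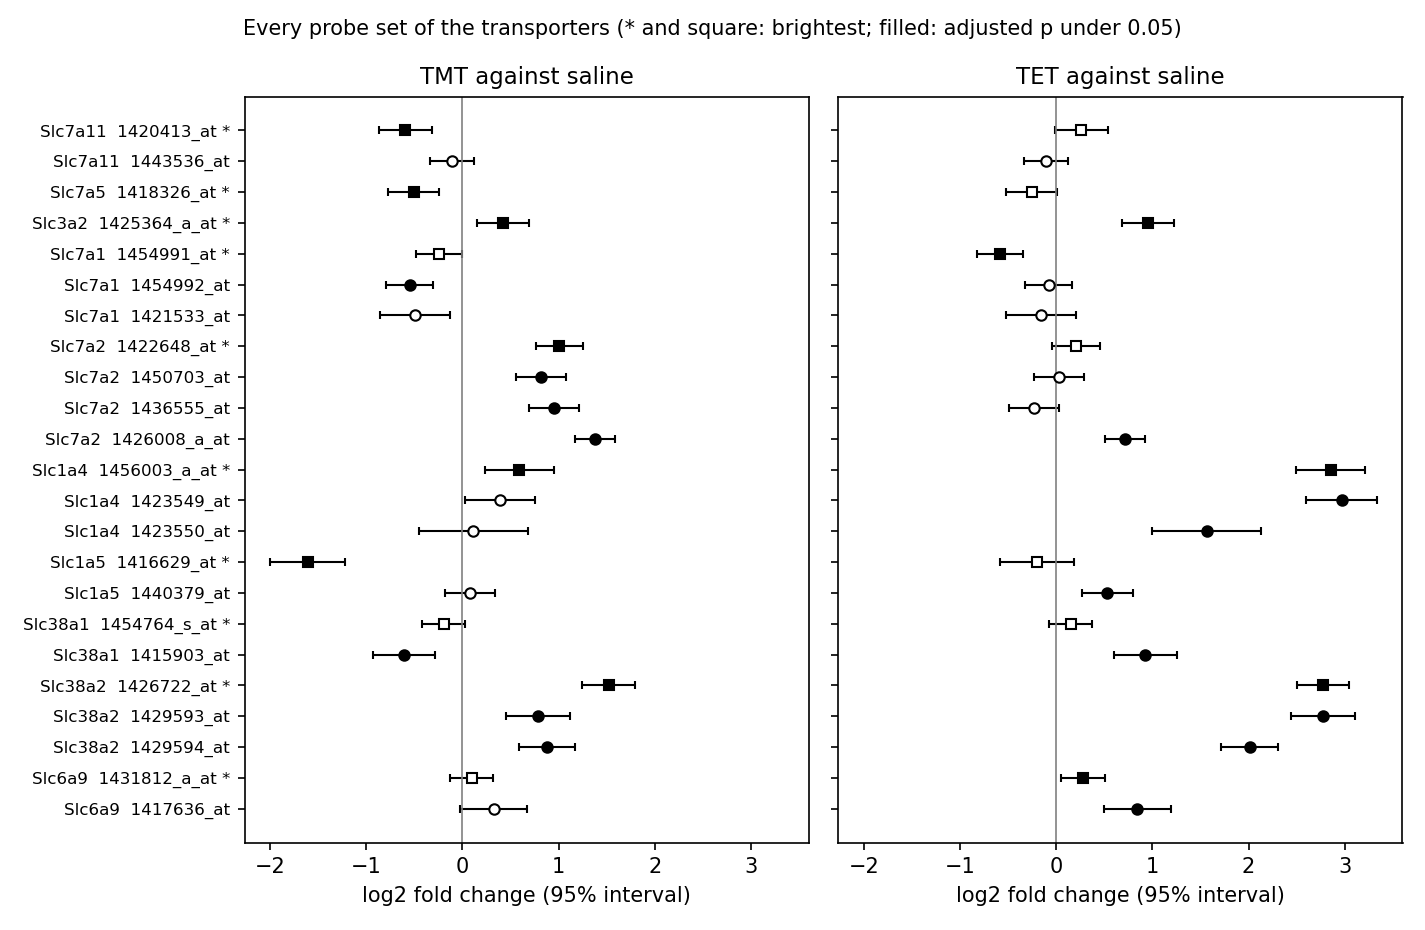
Log2 fold changes (horizontal axis) with 95% intervals of every probe set that names only 1 of the transporters, for TMT and TET against saline, from a fit over 34945 probe sets; squares and asterisks mark the brightest probe set of a gene, and filled points had an adjusted p under 0.05. The probe sets of Slc38a2 and Slc7a2 lie on one side of 0 under TMT, whereas the pairs of Slc7a11, Slc1a5 and Slc38a1 differ in size or call.

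Amino acid transporter genes are known targets of ATF4. Promoters are shown for Slc1a4 and Slc38a2, which rose most under TET, and for Slc7a11. Those of Slc3a2, Slc7a1 and Slc6a9 were searched but are not printed. RefSeq promoter sequences (build GRCm38.p6) were at hand for 6 of the 10 genes, in 9 windows from 250 bases before the start to 50 after it. Slc7a5, Slc7a2, Slc1a5 and Slc38a1 had none, and sequence outside the windows was not searched. The windows were searched on both strands for TGATGNAA, the core of the element bound by ATF4 with C/EBP proteins, and for TGACNNNGC, the core of the element bound by NRF2. TGATGNAA was found in 3.97% of 32851 windows of the same length and TGACNNNGC in 12.4%. The stretches printed here lie at chr3:50443604-50443713 (Slc7a11), chr11:20332704-20332813 (Slc1a4) and chr15:96699719-96699828 (Slc38a2). Each, minus strand and 5′ to 3′, runs from 100 bases before the start to the first 10 transcribed bases, with matches to either motif in capitals (TTGCATCA is TGATGCAA on the opposite strand).
Slc7a11: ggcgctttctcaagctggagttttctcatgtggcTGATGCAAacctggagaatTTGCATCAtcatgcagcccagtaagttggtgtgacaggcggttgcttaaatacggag
Slc1a4: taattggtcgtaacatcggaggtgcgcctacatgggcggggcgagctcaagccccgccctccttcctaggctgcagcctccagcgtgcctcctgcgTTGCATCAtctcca
Slc38a2: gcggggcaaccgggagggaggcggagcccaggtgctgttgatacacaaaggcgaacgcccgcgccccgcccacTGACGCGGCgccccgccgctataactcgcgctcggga
TGATGNAA matched in 2 of the 6 genes, in 2 of their 9 windows. Slc7a11 held it in both orientations, beginning 66 and 47 bases before the start, and Slc1a4 held it across the start, beginning 4 bases before it. TGACNNNGC matched in Slc38a2, Slc7a1 and Slc6a9, in 4 of the 9 windows, and the motifs did not overlap. Neither motif matched in the Slc3a2 window. Of the pair with TGATGNAA, Slc1a4 rose 7.24-fold under TET and 1.5-fold under TMT. Slc7a11 did not pass under TET (0.26) and fell 1.51-fold under TMT, where its second probe set did not pass (−0.11).

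Genes with the most similar pattern were sought by the root mean square difference over the 9 arrays, after each gene was centred on its own mean. For Slc38a2 the closest were Nbr1 (0.16 log2 units), Mknk2 (0.18) and Asns (0.19), where the median over genes was 1.25. Nbr1 encodes an autophagy receptor and Asns asparagine synthetase. For Slc7a11 they were Gadd45b, Fuca2 and Stxbp5 (0.09 to 0.10), and for Slc7a2 Fkbp15, Uba7 and Sumo3 (0.07 to 0.09). For Slc1a4 they were Slc18a1, G2e3 and Ankrd12 (0.19 to 0.20), and for Slc1a5 Pnpla7, Serpinb6a and Atp6v0a1 (0.17 to 0.18). For Slc3a2 they were Wbp2, Mkks and Atp6v0d1 (0.049 to 0.090), for Slc7a5 Cox16, Acaca and Tmem209 (0.079 to 0.081), and for Slc7a1 Anapc10, Ptpn12 and Rabep2 (0.062 to 0.071). These are descriptions of likeness over arrays of 3 groups.

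A further 48 amino acid transporters were examined, 46 of them measured and 18 at or above the median level. Among these 18, TMT raised 9 and lowered 1, against 24.1% raised and 22.1% lowered of all genes at that level. Their median log2 fold change was 0.57, against 0.032 for all genes at that level. TET raised 6 and lowered 9, against 23.6% and 41.3%, with a median of −0.37 against −0.19. Over all 46, dim genes included, TMT raised 12 and lowered 2 (median 0.081), and TET raised 16 and lowered 9 (median 0.21, opposite in sign to that of the brighter 18). These are 26.1% and 4.35% under TMT, against 14.3% and 13.4% of all genes. Under TET they are 34.8% and 19.6%, against 27.4% and 23.4% of all genes, so the total called there is near the 50.8% of all genes. The carriers known from lysosomes that follow were named because they were called or after their values were seen. How many of them rose is therefore no result about such carriers. Slc66a1, an exporter of cationic amino acids from lysosomes, rose 4.43-fold under TMT (2.15, SE 0.22, adjusted p = 4.54e-05) and did not pass under TET (0.28, adjusted p = 0.31). Slc36a1, a proton-coupled carrier found on lysosomes, rose 3.13-fold under TMT (1.65, SE 0.17) and 1.99-fold under TET (0.995, SE 0.17). Slc38a7, which exports glutamine and asparagine from lysosomes, rose 2.66-fold under TMT (1.41, SE 0.12) and 2.08-fold under TET (1.05, SE 0.12). Mfsd12, needed for cysteine import into lysosomes, rose 2.33-fold under TMT and 2.71-fold under TET. Ctns, the lysosomal cystine exporter, rose 1.55-fold under TMT (0.64, SE 0.12, adjusted p = 0.0022) and 2.57-fold under TET (1.36, SE 0.12, adjusted p = 8e-06). Slc15a4, a lysosomal carrier of histidine and peptides, did not pass under TMT (0.062) and fell 2.2-fold under TET (−1.14, adjusted p = 0.00074). Slc15a3, of the same family, rose under TMT (0.59, adjusted p = 0.000252) and under TET (0.37, adjusted p = 0.00287). Slc38a9, a lysosomal arginine sensor, passed under neither compound (0.48, adjusted p = 0.129 under TMT, and 0.011, adjusted p = 0.968 under TET).

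Of 7 other genes of this kind (light chains and the heavy chain Slc3a1), 2 rose and 5 did not pass under TMT, and 2 rose and 3 fell under TET. The shares called over all genes were 27.8% and 50.8%. The 2 that rose under TET were dim, Slc7a13 at the 11.1th and Slc3a1 at the 47.3rd percentile of genes. The 3 at or above the median level (Slc7a6, Slc7a7 and Slc7a8) fell, where 41.3% of all genes at that level fell. Slc7a8 (LAT2) rose 1.74-fold under TMT, to 11.27 ± 0.29 against 10.47 ± 0.06 in saline (SD, n = 3 each), and fell 1.38-fold under TET, to 10.01 ± 0.18. Slc7a7 (y+LAT1) fell 2.85-fold under TET, to 8.38 ± 0.28 against 9.89 ± 0.08 in saline (−1.51, SE 0.14, adjusted p = 1.31e-05), and did not pass under TMT (−0.12). Slc38a6, a further SLC38 member, rose 2.51-fold under TMT and fell 1.59-fold under TET. Slc43a2, a facilitated carrier of branched-chain amino acids known as LAT4, fell 3.71-fold under TET, to 11.07 ± 0.24 against 12.97 ± 0.03 in saline. Slc6a6, the taurine transporter, fell 1.24-fold under TMT and 1.49-fold under TET. Among dim genes, Slc6a19, known from kidney and gut epithelium, was at 6.88 ± 0.31 in TET and 4.09 ± 0.20 in saline (2.79, SE 0.17), a level in saline not shown to lie above background.

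**Figure D4:**
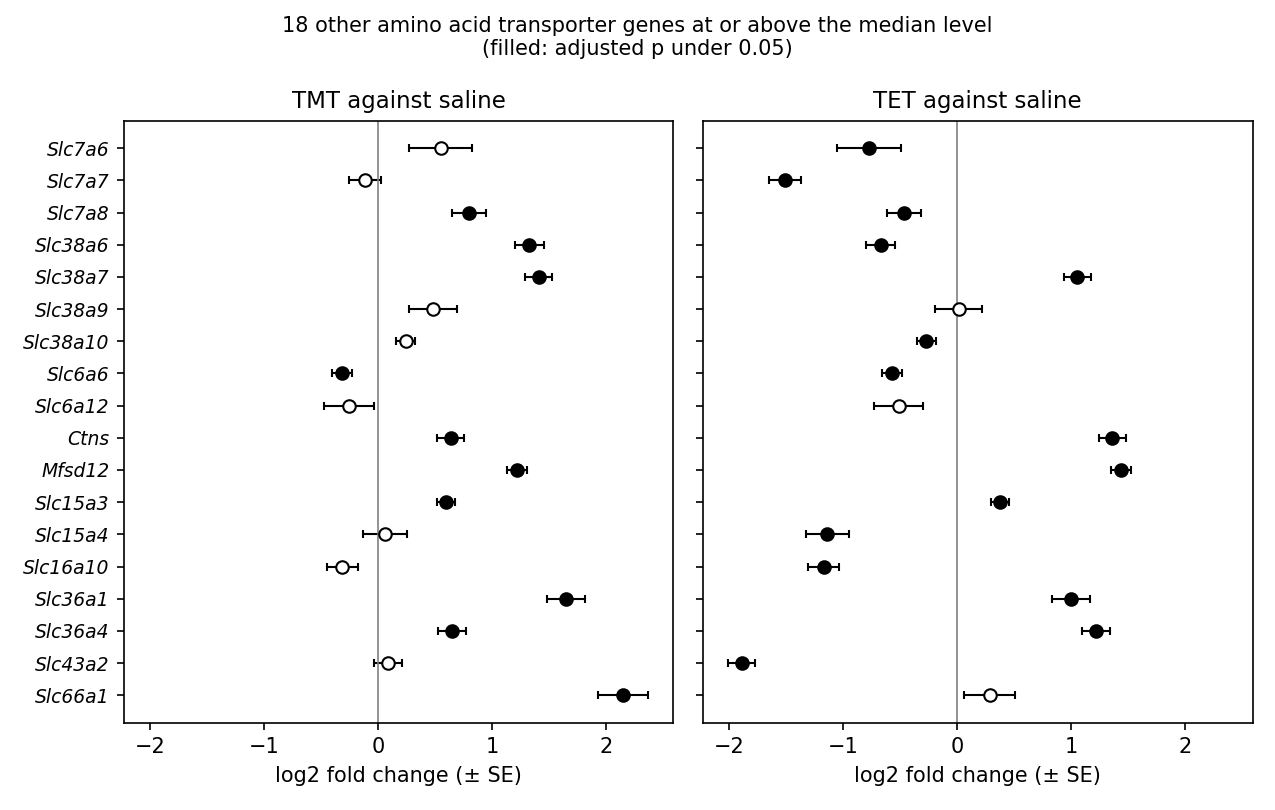
Log2 fold changes ± SE (horizontal axis) of the 18 other amino acid transporter genes at or above the median level, for TMT and TET against saline; filled points were called at an adjusted p under 0.05. Under TMT 9 filled points lie above 0 and 1 below, and under TET 6 lie above and 9 below.

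Regulators and users of the transported amino acids were set beside the transporters. Of all genes at or above the median level, 24.1% rose and 22.1% fell under TMT, and 23.6% rose and 41.3% fell under TET, which is the background for the counts that follow. Of 17 amino acid stress regulators, all at that level, 9 rose and 3 fell under TMT and 11 rose and 1 fell under TET. Ddit3, encoding the transcription factor CHOP, rose 4.95-fold under TMT and 7.99-fold under TET, and Atf4 rose 1.39-fold and 2.06-fold. Ppp1r15a, encoding the GADD34 phosphatase subunit that reverses the stress signal, fell 2.75-fold under TMT and rose 3.84-fold under TET. Cebpg, encoding an ATF4 partner, was at 11.31 ± 0.12 in TET and 8.78 ± 0.09 in saline (5.78-fold).

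Of 6 genes of arginine use, 3 rose and 1 fell under TMT. Nos2, the inducible nitric oxide synthase, rose 2.23-fold (1.16, SE 0.22, adjusted p = 0.00272), and Arg2 rose 6.07-fold. Arg1 was 6.09-fold higher, against a saline level of 6.05 that was not shown to lie above background, so that fold can understate the change. Under TET 2 rose and 2 fell, near the 64.9% called at or above the median level: Arg2 rose 7.86-fold, and Ass1 and Asl, which rebuild arginine from citrulline, fell 2.21-fold and 1.62-fold, Ass1 from a dim probe set at the 32.7th percentile. Of 5 measured genes of glutamine and glutamate use, 2 fell under TMT, no larger a share than the 46.2% called at that level, and 3 rose and 1 fell under TET. Glul, encoding glutamine synthetase, fell 2.03-fold under TMT and rose 1.48-fold under TET.

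Of 11 genes of cystine use, glutathione and NRF2, 4 rose and 3 fell under each compound, under TET no more than the 64.9% called at or above the median level. Hmox1 rose 5.54-fold under TMT and 6.83-fold under TET, while Gsr, encoding glutathione reductase, rose 1.63-fold under TMT and fell 1.78-fold under TET. Of 7 measured genes of serine and glycine use, 2 rose and 1 fell under TMT and 3 rose and 1 fell under TET, shares below the 46.2% and 64.9% called at that level. Phgdh, the first enzyme of serine synthesis, rose 2.33-fold under TMT and 3.05-fold under TET.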

How the data were processed

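RNA was labelled after Nugen WT-Ovation Pico amplification and hybridised to Affymetrix mouse arrays, per the labels' protocols. The deposited log2 values were made with RMA and affy, per the submitters' processing notes, with no version. The log base was taken from the values (2.05 to 14.8). The values were used as deposited, and the table holds no control probe sets.

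Of 45037 probe sets, 34945 named 1 gene, 932 several and 9160 none in the platform annotation. Symbols were updated through RefSeq gene identifiers (GRCm38.p6), and 204 probe sets had an identifier not found there. Each of 18193 genes was represented by its probe set with the highest mean over 9 arrays. A model with 1 mean per group was fitted with limma 3.58.1 in R 4.3.3 (6 residual and 3.99 prior degrees of freedom), with two-sided p-values adjusted by Benjamini and Hochberg over all genes. Arrays have no sequencing depth. Precision rests on how many there are, and with 3 in each of 2 groups exact permutation p-values reach 0.1 at the lowest. The fit was tested on simulated data.

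The members and lists were chosen with earlier results of these data known. Besides the members, the text names, up to 3 called genes per list and comparison with saline (those of lowest adjusted p) and the 3 genes nearest in pattern; of the first, a part is described. Atf4, Slc7a6, Slc15a3, Slc15a4, Slc38a9 and the fibroblast and neutrophil markers were named outside this rule, after their values were seen. Alternatives were leaving out each array, a replicate block, a filter on dim genes, centring, renewed quantile normalization, averaged probe sets, leaving out probe sets of related transcripts, trended moderation and fits to 6 arrays. Cyclic loess and single probe sets were added after seeing the data. Replicate numbers were shared between groups, but deviations of same-numbered arrays correlated at −0.15 to 0.31, so the numbers were not taken to pair the samples.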

Additional observations from a re-analysis of the deposited data

How the results depend on the processing

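For the 10 transporters, 534 values under 18 alternatives were compared with those reported: 487 kept their direction and their side of the threshold, 24 lost a call, 20 gained one and 3 changed sign. The sign changes were Slc1a5 under TET without TET replicate 1 (0.033; leaving out single arrays gave −0.34 to 0.033) and with averaged probe sets (0.17), and Slc7a1 for TET against TMT with averaged probe sets (0.15). Single probe sets changed the sign of Slc1a5 (0.077 under TMT and 0.53 under TET), Slc7a2 under TET (−0.23), Slc7a11 under TET (−0.11) and for TET against TMT (−0.00186), and Slc7a1 for TET against TMT (0.33 and 0.47). The cause was not tested.

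Leaving out 1 array at a time gave 3971 to 5522 genes called under TMT, 7540 to 9372 under TET and 8006 to 9232 for TET against TMT. The transporters that rose under TMT then numbered 2 to 4 and those that fell 3 to 4. Under TET 3 to 4 rose and 1 to 2 fell, and for TET against TMT 6 to 7 were higher and 1 to 2 lower. With averaged probe sets 5 transporters fell under TMT, and without probe sets of related transcripts 2 rose, Slc3a2 then having no probe set. For TET against TMT 1 transporter was lower after renewed quantile normalization, with averaged probe sets, in the fit to 6 arrays and after cyclic loess. With genes at or above the median level alone, which leaves fewer genes tested and no value for Slc6a9, 6066 genes were called under TET and 6270 for TET against TMT. With the replicate block 4859 genes were called under TMT, 8956 under TET and 9119 for TET against TMT; 1 transporter call was lost (Slc6a9 under TET, adjusted p = 0.0587). In 3 of 9 checks an array deviated most like the array of its own number.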
